A study of Mus musculus with 24 samples.

Results

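MK-8722, a small-molecule activator of AMP-activated protein kinase (AMPK), was compared with its DMSO vehicle in mouse embryonic fibroblasts (MEFs) labelled as knockout for the kinase. The comparison held 4 libraries labelled AMPK-KO and MK8722 and 4 labelled AMPK-KO and DMSO-control, which are 8 of the 24 RNA-seq libraries of the series. A library of each treatment came from each of passages 16, 17, 18 and 19, and the groups were compared within passages. The remaining libraries were AMPK KO MEFs given torin1, an inhibitor of the kinase MTOR, and wild-type (WT) MEFs given each of the 3 treatments, again with 4 libraries per group. According to the methods of the study, AMPK KO stands for deletion of both Prkaa1 and Prkaa2, which encode the alternative catalytic subunits, and all 8 compared libraries carry it. Each genotype was represented by a separate cell line obtained from another laboratory, with WT at passages 12 to 15, so genotype, line and passage range cannot be told apart. The labels give neither a dose nor a time of treatment. The question the comparison addresses is which transcripts respond to MK-8722 in cells without the catalytic subunits.

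AMPK is a trimer of a catalytic alpha subunit with regulatory beta and gamma subunits. It is switched on when cellular energy falls, and then restrains biosynthesis and MTOR complex 1 and favours catabolism, autophagy and lysosome formation. MK-8722 binds a pocket formed between the alpha and beta subunits, so a cell without alpha subunits lacks that site. Other stress and nutrient pathways act on the same metabolic genes, among them ATF4 in the integrated stress response, the ERK kinase cascade, the aryl hydrocarbon receptor (AHR), which senses foreign chemicals, and the glucose-responsive factors that set Txnip.

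The 8 libraries held between 30035777 and 33467698 estimated counts, and all 24 between 26900240 and 34192685. RNA integrity numbers of the 8 lay between 9.8 and 10, and a single batch label covers the series. Log levels of libraries of the same group correlated across genes at 0.9907 to 0.9934. The fibroblast markers Col1a1, with 27577 to 37721 counts, Vim, with 48740 to 66096, and Fn1, with 59964 to 87073, were abundant in every one of the 8 libraries. Other defining fibroblast markers were at or near 0, with 0 counts of Lum and 0 to 7 of Dcn, while the neural markers Tubb3, with 2667 to 3495 counts, and Sox2, with 305 to 491, and the epithelial keratin Krt19, with 422 to 657, were present. Of 8 leukocyte markers Ptprc, Adgre1 and Tyrobp were at 0 throughout, Csf1r, Itgam and Lyz2 at 0 to 11 counts, Cd68 at 36 to 64 and Cd14 at 74 to 98. Of 7 muscle markers Myod1, Myog and Myf5 were at 0, Myh3 and Acta1 at 0 to 15 counts, Des at 46 to 106 and Tnnt1 at 126 to 175. The deletion could not be checked from transcript levels. Prkaa1 (chr15:5143861-5181899, GRCm38) stood at 66.9 to 73.3 CPM (counts divided by TMM-scaled library size) in AMPK KO DMSO and at 78.0 to 82.6 CPM in WT DMSO, and Prkaa2 at 2.34 to 4.48 CPM and 3.22 to 5.71 CPM. Reads of a transcript that carries a deletion are counted wherever they fall outside the deleted part.

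MK-8722 changed 729 genes in AMPK KO MEFs, of which 414 rose and 315 fell. Among the 15828 genes tested these are 4.61%, 2.62% and 1.99%. With scaling by library size alone 350 rose and 377 fell, so which direction held more genes depended on the scaling. Calls required a fold change of at least 1.2 and p below 0.05 in the quasi-likelihood test of edgeR after Benjamini-Hochberg correction over all genes, fitted with passage as a block. The changes were small. The median fold change of the called genes was 1.32, 185 of them (93 higher and 92 lower) reached 1.5-fold and 44 (22 in each direction) reached 2-fold. Levels went the same way in all 4 passages for 717 of the 729 genes, against 5933 (37.5%) of all genes tested. The 4 MK-8722 libraries did not overlap with the 4 DMSO libraries for 440 (60.4%) of the called genes, against 11.7% of all genes tested. Without the block 247 genes (1.56%) were called, 137 higher and 110 lower, and all 247 were among the 729 with the same sign. Leaving out both libraries of passage 19 left 429 genes, and leaving out those of passage 16, 17 or 18 left 562, 566 and 544. In all 8 fits that each left out a single library 347 of the calls were kept. Whether a called difference reflects less RNA per cell or fewer cells of some kind cannot be told apart in bulk RNA. The labels do not say how the cultures of the passages were kept apart, so p values measure only the spread between these libraries, which may be technical.

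**Figure D1:**
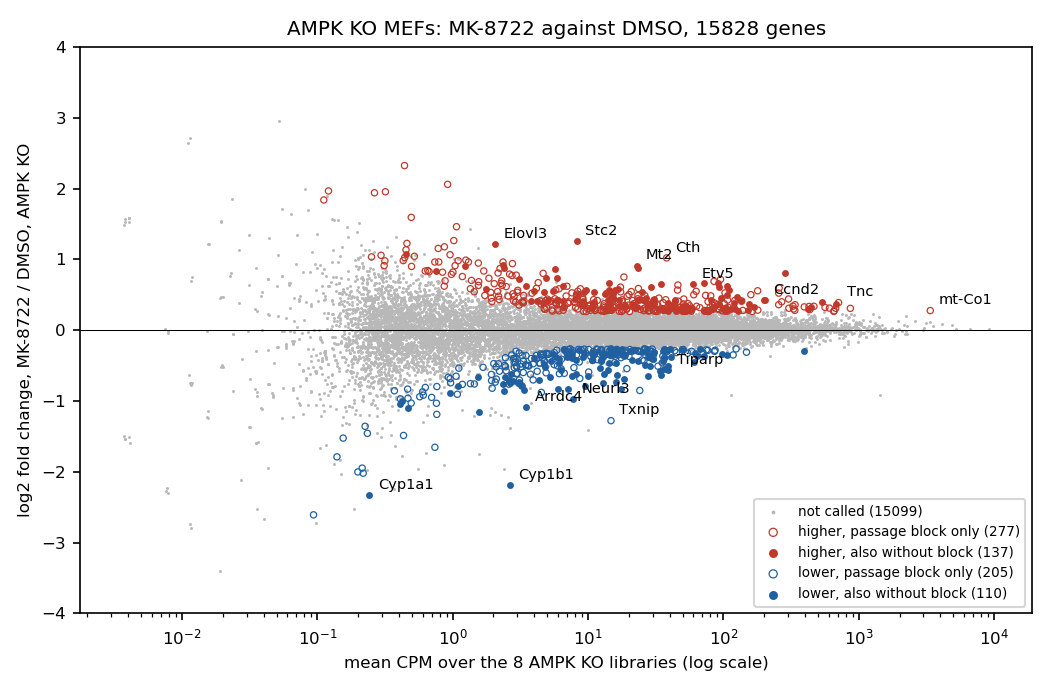
Each point is a tested gene, with its mean level over the 8 AMPK KO libraries in CPM on a log axis and its log2 fold change of MK-8722 over DMSO. Filled points are the 137 higher and 110 lower genes called with and without the passage block, open points those called with the block alone, and 5 genes lie outside the axis limit of 4.

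The largest fall among genes with at least 2 CPM belonged to Cyp1b1, a cytochrome P450 and a standard target gene of AHR. Of the 9 tested genes of the AHR pathway, 4 fell (Cyp1a1, Cyp1b1, Ahrr and Tiparp) and none rose. Among all genes tested 1.99% fell and 2.62% rose. The upstream sequences of the 4 genes that fell are printed because all 4 hold the core letters of the element bound by AHR. Each line is the 250 bases before the RefSeq start of the gene in GRCm38.p6, 5′ to 3′ on the strand of the gene, with matches to GCGTG on either strand (CACGC when read from the other strand) in capitals. The windows are chr17:79715062-79715311 on the minus strand for Cyp1b1, chr9:57697363-57697612 on the plus strand for Cyp1a1, chr13:74292332-74292581 on the minus strand for Ahrr and chr3:65528197-65528446 on the plus strand for Tiparp. The matches start 76, 54 and 170 bases before the start in Cyp1b1, Cyp1a1 and Tiparp, and 107, 82 and 27 bases before it in Ahrr. GCGTG stands in 46.6% of the 10786 promoters that could be matched to a tested gene, so a match is common and only describes these windows.
Cyp1b1: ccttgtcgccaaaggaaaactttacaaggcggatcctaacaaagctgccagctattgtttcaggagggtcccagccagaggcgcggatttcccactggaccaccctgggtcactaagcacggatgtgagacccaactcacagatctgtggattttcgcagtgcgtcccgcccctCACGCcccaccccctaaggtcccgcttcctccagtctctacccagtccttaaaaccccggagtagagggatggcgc
Cyp1a1: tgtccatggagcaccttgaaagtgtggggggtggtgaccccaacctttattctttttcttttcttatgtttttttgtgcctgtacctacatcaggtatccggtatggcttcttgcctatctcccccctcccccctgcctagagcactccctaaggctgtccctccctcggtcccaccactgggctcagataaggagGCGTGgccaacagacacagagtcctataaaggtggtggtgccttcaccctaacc
Ahrr: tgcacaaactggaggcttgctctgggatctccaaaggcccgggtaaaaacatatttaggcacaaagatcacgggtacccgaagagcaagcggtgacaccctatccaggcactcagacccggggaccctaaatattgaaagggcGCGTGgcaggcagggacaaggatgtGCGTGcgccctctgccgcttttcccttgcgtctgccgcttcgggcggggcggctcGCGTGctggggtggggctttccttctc
Tiparp: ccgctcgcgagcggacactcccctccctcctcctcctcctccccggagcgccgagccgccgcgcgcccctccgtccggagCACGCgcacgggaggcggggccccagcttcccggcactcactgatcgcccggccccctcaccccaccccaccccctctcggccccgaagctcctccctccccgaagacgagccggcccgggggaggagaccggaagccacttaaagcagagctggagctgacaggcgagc

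Cyp1b1 (chr17:79701537-79715061), which oxidises steroids and polycyclic hydrocarbons, stood at 6.35, 3.17, 4.14 and 3.76 CPM in DMSO at passages 16, 17, 18 and 19 and at 1.08, 0.743, 0.934 and 1.04 CPM in MK-8722. All 4 treated libraries lay below all 4 vehicle libraries. Cyp1b1 fell by 2.19 on the log2 scale (SE 0.17, edgeR adjusted p = 3e-07, and 0.0081 without the block). Tiparp, a poly(ADP-ribose) polymerase that represses AHR, was at 46.7, 46.2, 45.0 and 48.8 CPM in DMSO and at 28.2, 31.4, 34 and 32.8 CPM in MK-8722. The Tiparp groups were also fully apart (log2 fold change -0.56, SE 0.051, edgeR adjusted p = 1.5e-06, and 7.2e-05 without the block). Ahrr, the AHR repressor, went from 2.44, 2.3, 2.25 and 2.62 CPM to 1.77, 1.07, 1.42 and 1.63 CPM (log2 fold change -0.71, SE 0.18, edgeR adjusted p = 0.013). Ahrr was called in 4 of the 8 fits that left out a single library, with the highest edgeR adjusted p, 0.064, without the MK-8722 library of passage 17, and it was not called without the block (adjusted p = 0.057). Cyp1a1 was barely detected, with 10 to 22 counts per library in DMSO and 1 to 4 in MK-8722, so that its fall was called (edgeR adjusted p = 0.00081) but its fold change depends on the prior count and is not given. In WT libraries Cyp1b1 was also lower with MK-8722 (log2 fold change -1.5), and the fall in AMPK KO was the larger by 0.68 (edgeR adjusted p of the difference = 0.025). Cyp1a1 had 5 to 13 counts in WT DMSO and 0 in each WT MK-8722 library. The response of Tiparp differed, with a log2 fold change of 0.21 in WT that stays under the fold change required and a difference of -0.77 (edgeR adjusted p = 5.8e-07). The other 5 tested members of the AHR list did not pass, and over all 9 the median log2 fold change was -0.04, beside 0.00 over all genes.

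Genes of the integrated stress response rose together. Of 39 tested members of a list of ATF4 and its targets, 26 rose and none fell, beside 2.62% and 1.99% of all genes tested. Of the 39, 37 had a log2 fold change above 0, with a median of 0.36 beside 0.00 over all genes tested. The median was 0.49, 0.32, 0.3 and 0.37 within passages 16, 17, 18 and 19. Levels of these genes differed between passages, and without the block 5 members were called (Atf4, Atf3, Chac1, Stc2 and Adm2). With both libraries of passage 16, 17, 18 or 19 left out, 18, 24, 21 and 18 members were called. Atf4 itself, the transcription factor whose translation rises when the initiation factor EIF2 is phosphorylated, went from a mean of 597 to 769 CPM (log2 fold change 0.37, edgeR adjusted p = 0.00043). The members called include transcription factors (Atf3, Ddit3 and Cebpb), feedback inhibitors (Trib3, Chac1, Ddit4 and Sesn2), amino acid transporters (Slc7a11, Slc7a5, Slc3a2 and Slc7a1) and enzymes of serine, proline, asparagine and one-carbon metabolism (Psph, Pycr1, Aldh18a1, Asns and Aldh1l2). Members beyond Stc2, Cth, Adm2, Gdf15, Slc7a11 and Sesn2 are outside the naming rule and were named after their values had been seen. The 13 tested members that did not pass include Psat1, Phgdh, Shmt2 and Mthfd2, further enzymes of serine and folate metabolism.

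Upstream sequences of 33 of the 39 tested members were in the RefSeq table. The element bound by ATF4 with its C/EBP partners was searched as TGATGNAA on both strands. It stood in 9 (27.3%) of these 33 windows and in 8 (34.8%) of the 23 windows of called members, against 197 (1.83%) of the 10786 windows of tested genes. Those 8 genes are Vldlr, Chac1, Slc7a11, Atf3, Pck2, Pycr1, Nupr1 and Asns. The windows of Chac1 (chr2:119350992-119351241, plus strand), Slc7a11 (chr3:50443614-50443863, minus strand) and Atf3 (chr1:191183334-191183583, minus strand) are printed as a feedback enzyme, a transporter and a transcription factor with the element, again as the 250 bases before the RefSeq start in GRCm38.p6, with matches on either strand in capitals. The match starts 193 bases before the start in Chac1, 66 and 47 bases before it in Slc7a11 and 110 bases before it in Atf3. The list was drawn up from general knowledge as ATF4 and its targets. A share above that of all windows can follow from that choice, and is not a result of the treatment. The match is a description of the letters and no measure of binding.
Chac1: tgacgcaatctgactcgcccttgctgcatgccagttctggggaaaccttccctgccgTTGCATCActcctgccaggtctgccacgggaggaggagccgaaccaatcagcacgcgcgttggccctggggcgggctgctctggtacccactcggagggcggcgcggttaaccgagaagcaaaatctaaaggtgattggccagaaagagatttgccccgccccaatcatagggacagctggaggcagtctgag
Slc7a11: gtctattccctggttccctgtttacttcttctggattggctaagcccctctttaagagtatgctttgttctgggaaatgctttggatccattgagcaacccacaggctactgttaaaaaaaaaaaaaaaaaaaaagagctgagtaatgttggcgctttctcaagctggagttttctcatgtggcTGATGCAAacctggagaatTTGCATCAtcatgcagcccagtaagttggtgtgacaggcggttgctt
Atf3: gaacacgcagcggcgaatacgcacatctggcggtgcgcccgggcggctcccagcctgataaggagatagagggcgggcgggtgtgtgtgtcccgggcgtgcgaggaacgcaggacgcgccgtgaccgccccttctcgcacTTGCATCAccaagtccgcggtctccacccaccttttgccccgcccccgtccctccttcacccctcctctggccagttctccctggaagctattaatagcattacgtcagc

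Stc2 (chr11:31357307-31370074), a secreted stress-induced glycoprotein, had the largest rise of all genes with at least 2 CPM. It stood at 5.43, 4.14, 5.76 and 4.15 CPM in DMSO and at 14.4, 8.59, 12.7 and 11 CPM in MK-8722. The groups did not overlap, and the log2 fold change was 1.26 (SE 0.095, edgeR adjusted p = 3e-07, and 0.0081 without the block). Cth, the enzyme that makes cysteine from cystathionine, was at 41.9, 16.0, 25 and 17.5 CPM in DMSO and at 83.5, 31.4, 52.2 and 36.9 CPM in MK-8722. It was higher within each passage by a similar ratio, while the passages differed so much that the groups overlapped. The log2 fold change was 1.02 (SE 0.15, edgeR adjusted p = 0.00016), and without the block the call was lost (adjusted p = 0.15). Slc7a11, which imports cystine in exchange for glutamate, likewise overlapped between groups at 46.2, 29.8, 39.7 and 28.8 CPM in DMSO and 68.5, 42.6, 62.2 and 50.9 CPM in MK-8722. It was higher in each of the 4 passages (log2 fold change 0.64, SE 0.073, edgeR adjusted p = 1.4e-05, and 0.31 without the block). Adm2, a peptide hormone of the calcitonin family, rose from 15.7, 12.6, 21.2 and 16.2 CPM to 36.2, 21.5, 35.6 and 28.0 CPM, so that its groups were just apart (log2 fold change 0.88, SE 0.09, edgeR adjusted p = 5e-06, and 0.019 without the block). Chac1, which degrades glutathione, was at 59.9, 61.3, 88.4 and 70.2 CPM in DMSO and at 109, 97.6, 123 and 113 CPM in MK-8722, with no overlap (log2 fold change 0.67, edgeR adjusted p = 1.2e-05). Gdf15, a circulating stress signal, was low at 1.2 to 2.97 CPM in DMSO and 3.03 to 4.03 CPM in MK-8722. Its call (log2 fold change 0.78, edgeR adjusted p = 0.029) was kept in 2 of the 8 fits that left out a library and rose to an adjusted p of 0.15 without the DMSO library of passage 17.

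**Figure D2:**
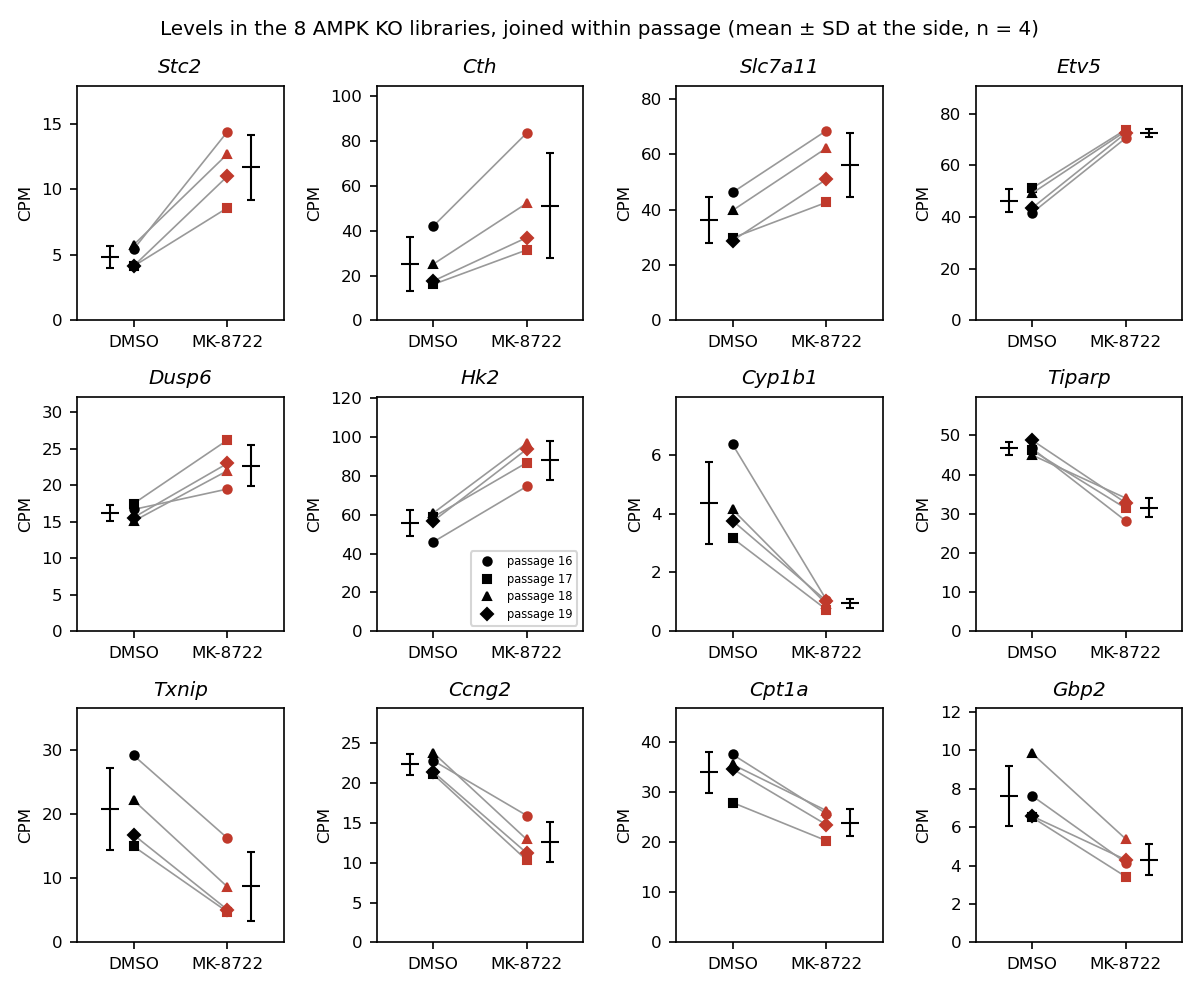
Levels in CPM of 12 genes in the 8 AMPK KO libraries, with lines that join DMSO and MK-8722 of the same passage and the mean ± SD (n = 4) beside each group. The lines run in the same direction in all 4 passages for each gene, also for Cth, Slc7a11 and Txnip, whose groups overlap because the passages start from different levels.

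In WT the same 39 genes did not rise together. Their median log2 fold change in WT was -0.2, with 5 members higher and 15 lower. The response differed between the genotypes for 31 of the 39 genes, and it was the higher one in AMPK KO for 30 of them. Adm2 fell by 0.52 in WT on the log2 scale, a difference of 1.4 between the responses (edgeR adjusted p = 2.1e-06). Slc7a11 fell by 0.67 in WT, a difference of 1.31 (edgeR adjusted p = 9.6e-08), and Sesn2, an inhibitor of MTOR complex 1, rose by 0.42 in AMPK KO and fell by 0.6 in WT. The exceptions in WT include Ddit3, with a log2 fold change of 1.15 there and 0.61 in AMPK KO. Stc2 was also higher in WT, by 0.5 on the log2 scale (edgeR adjusted p = 0.00034), beside 1.26 in AMPK KO. Aminoacyl-tRNA synthetases, which charge tRNAs with their amino acids, were counted after several had been seen among the abundant called genes. Of the 20 cytosolic enzymes 7 rose (Eprs, Gars, Lars, Nars, Sars, Tars and Wars) and none fell, beside 2.62% and 1.99% of all genes. The median log2 fold change of the 20 was 0.15, and -0.12 in WT. Of the 17 mitochondrial enzymes none was called, with a median of -0.02. No synthetase was called without the block, and Eprs was the only one called in all 8 fits that left out a library.

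**Figure D3:**
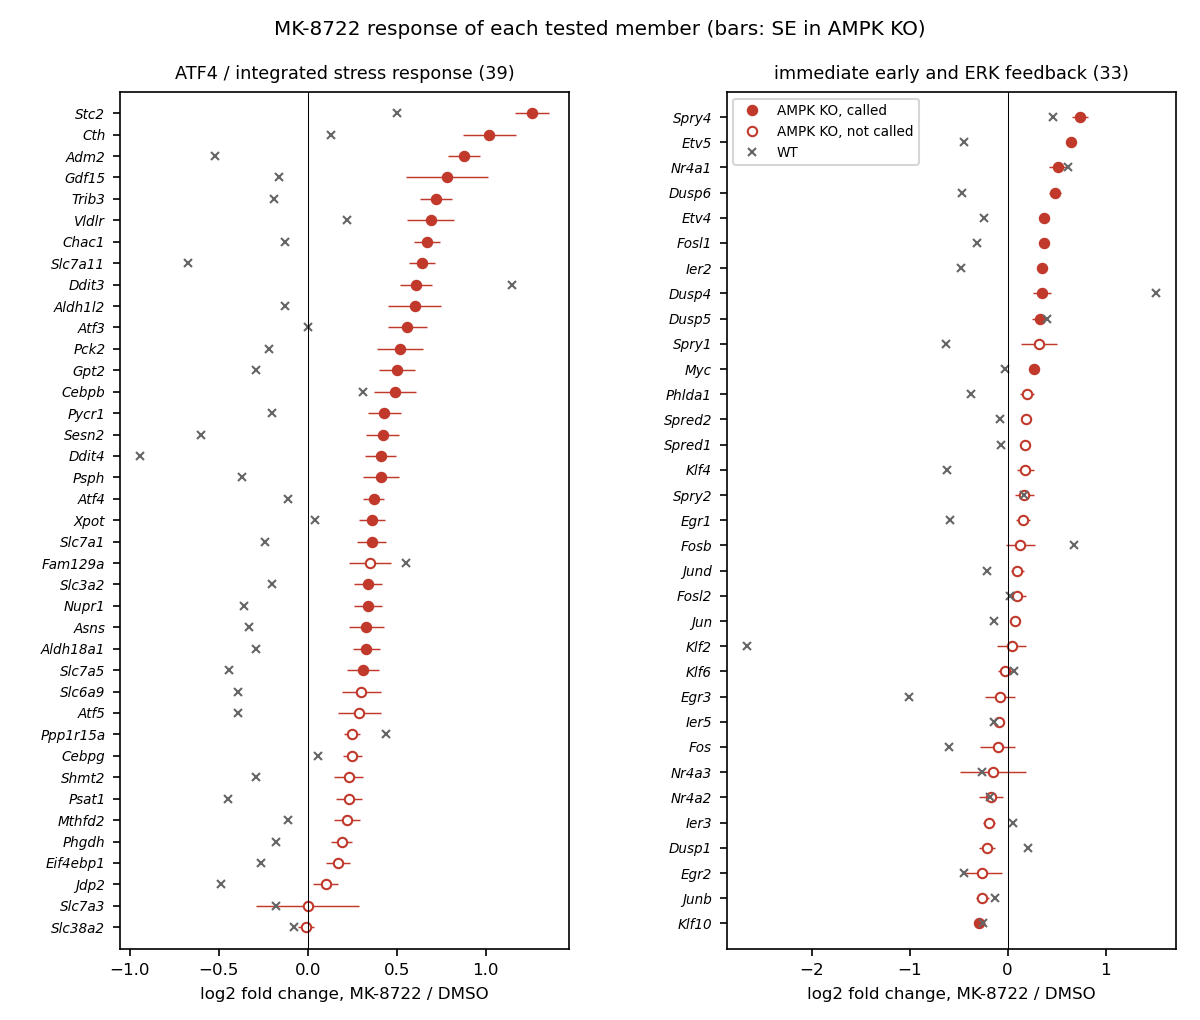
Log2 fold change of MK-8722 over DMSO for each tested member of the ATF4 list (left, 39 genes) and of the immediate early and ERK feedback list (right, 33 genes). Circles are AMPK KO with the SE as a bar, filled where called (26 and 11 genes), and crosses are WT, which lie below AMPK KO for most members of the left panel.

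Some of the genes that ERK signalling is known to induce also rose. Of 33 tested immediate early and ERK feedback genes 10 rose and 1 fell, beside 2.62% and 1.99% of all genes tested, and 22 were not called, with a median log2 fold change of 0.16, and 4 were called without the block. With the libraries of passage 16, 17, 18 or 19 left out, 12, 11, 10 and 8 were called. Etv5 (chr16:22381309-22439719), an ETS factor induced by ERK, had one of the 3 lowest p values of the comparison. It stood at 41.6, 51.2, 49.2 and 43.5 CPM in DMSO and at 70.6, 73.9, 73.3 and 72.5 CPM in MK-8722. The treated libraries lay close to each other and well above the vehicle libraries (log2 fold change 0.65, SE 0.046, edgeR adjusted p = 1.9e-07, and 0.0022 without the block). Spry4, an inhibitor of receptor tyrosine kinase signalling, rose from 3.29, 3.98, 3.69 and 3.73 CPM to 5.2, 7.49, 5.47 and 6.52 CPM (log2 fold change 0.74, edgeR adjusted p = 1.4e-05). Dusp6, the phosphatase that inactivates ERK, went from 16.7, 17.5, 15.1 and 15.6 CPM to 19.5, 26.2, 22 and 23 CPM without overlap (log2 fold change 0.48, edgeR adjusted p = 5.3e-05), a call that was lost without the block (adjusted p = 0.14). The nuclear receptor Nr4a1 rose by 0.51 on the log2 scale. Fosl1, Ier2, Etv4, Dusp4, Dusp5 and Myc rose by 0.27 to 0.37 and Klf10 fell by 0.29. These 7 were named after their values had been seen, except Myc, which was called in 5 of the 8 fits that left out a library (adjusted p up to 0.021, with the fold change below 1.2 in the others). Egr1, Fos and Jun, the first genes that ERK induces, were not called and are also outside the naming rule. In WT, Etv5 fell by 0.45 and Dusp6 by 0.47, and the responses differed by 1.1 (edgeR adjusted p = 1e-09) and 0.95 (edgeR adjusted p = 1.5e-07). For Nr4a1, which was higher in WT by 0.62, no difference of the responses was called (edgeR adjusted p = 0.54).

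Genes of the glucose response changed in opposite directions. Txnip, an arrestin-like protein that limits glucose uptake, stood at 29.2, 15.0, 22.2 and 16.8 CPM in DMSO and at 16.3, 4.78, 8.69 and 5.13 CPM in MK-8722. It was lower in each passage, with overlap of the groups through passage 16 (log2 fold change -1.28, SE 0.28, edgeR adjusted p = 0.0046, and 0.058 without the block). Its relative Arrdc4 fell from 6.32, 3.82, 4.56 and 4.25 CPM to 3.34, 2.03, 2.06 and 1.51 CPM, without overlap (log2 fold change -1.09, SE 0.18, edgeR adjusted p = 0.00057, and 0.016 without the block). Another relative, Arrdc3, rose by 0.37 and was called in 7 of the 8 fits that left out a library (edgeR adjusted p = 0.0094, and 0.05 without the DMSO library of passage 16). These are the 3 called genes among 8 tested, beside 4.61% called of all genes tested. CACGTG, searched as the letters of the element bound by the glucose-sensing factors MLXIP and MLXIPL, occurs once in the 250 bases before the Arrdc4 start. It is not in those before Txnip, and stands in 8.33% of all promoters matched. Only these exact letters were searched, so a form of the element with other letters would be missed. Hk2, the hexokinase that traps glucose in the cell, was at 45.9, 58.7, 60.7 and 56.6 CPM in DMSO and at 74.5, 86.7, 96.7 and 93.6 CPM in MK-8722. All treated libraries were above all vehicle libraries (log2 fold change 0.66, SE 0.07, edgeR adjusted p = 6.6e-06, and 0.00096 without the block). The glucose transporter Slc2a1 rose by 0.3 (edgeR adjusted p = 0.0015, and 0.012 without the DMSO library of passage 17, where its fold change fell under 1.2). Pdk1, a pyruvate dehydrogenase kinase, fell by 0.33 and was called in 3 of the 8 fits (adjusted p up to 0.17, without the MK-8722 library of passage 19). No other gene of the 29 tested in glycolysis and glucose or lactate transport was called. In WT, MK-8722 moved Txnip by -1.63, Arrdc4 by -1.15, Hk2 by 0.55 and Slc2a1 by 0.32, and for none of these 4 was a difference between the genotypes called (edgeR adjusted p from 0.45 to 0.9).

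Some genes of fatty acid oxidation and of the FOXO pathway fell. Cpt1a, which admits fatty acids to mitochondria, stood at 37.5, 27.9, 35.5 and 34.6 CPM in DMSO and at 25.7, 20.3, 26.3 and 23.5 CPM in MK-8722. The groups were apart (log2 fold change -0.5, SE 0.043, edgeR adjusted p = 1.1e-06, and 0.0061 without the block). Pdk4, a pyruvate dehydrogenase kinase, fell by 0.42, and the coactivator Ppargc1a, at 7 to 32 counts per library, fell by 0.94 but kept its call in 2 of 8 fits (edgeR adjusted p = 0.046, and 0.25 without the MK-8722 library of passage 16). These were the 3 called genes among 26 tested in fatty acid oxidation and PPAR targets, beside 4.61% called of all genes tested. Lpin1, a phosphatidate phosphatase and coactivator, was lower at 2.16 to 2.68 CPM against 3.27 to 4.65 CPM. Its log2 fold change was -0.79 (edgeR adjusted p = 0.0012, and 0.086 without the block). Lpin1 was the only called gene of 20 in fatty acid synthesis (5.0%), near the share of all genes, and the median of the 20 was 0.0. Ccng2, a cyclin induced by FOXO factors, went from 22.8, 21.1, 23.8 and 21.4 CPM to 15.9, 10.3, 12.9 and 11.2 CPM. It fell by 0.83 on the log2 scale without overlap (SE 0.081, edgeR adjusted p = 3.3e-06, and 3.3e-05 without the block). Sesn1, Foxo1 and the ubiquitin ligase Fbxo32 fell by 0.35, 0.32 and 0.3, and Gadd45a, a growth arrest gene, rose by 0.61. Fbxo32 is outside the naming rule and was named after its value had been seen. Together 4 of 21 tested FOXO and insulin receptor feedback genes fell and 1 rose, beside 1.99% and 2.62% of all genes tested. The median log2 fold change of the 21 was -0.14. Without the block 2 fell and 1 rose. In WT, Lpin1 rose with MK-8722 by 0.63, and Cpt1a had a log2 fold change of 0.25 that stays under the fold change required. The responses of Cpt1a and Lpin1 differed by -0.75 (edgeR adjusted p = 6.5e-08) and -1.42 (edgeR adjusted p = 2e-05).

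Part of the interferon-stimulated genes fell. Of 34 tested members of the interferon and antigen presentation list 9 fell and none rose (median log2 fold change -0.13), beside 1.99% of all genes tested that fell. The count was 2 without the block, 3 with an offset for transcript length, 1 with the replicate number of the titles as the block, and 6 whichever passage was left out. Gbp2, a guanylate-binding protein of antimicrobial defence, stood at 7.63, 6.51, 9.84 and 6.57 CPM in DMSO and at 4.15, 3.42, 5.38 and 4.3 CPM in MK-8722. No library of the groups overlapped (log2 fold change -0.82, SE 0.11, edgeR adjusted p = 5.7e-05, and 0.016 without the block). The guanylate-binding proteins are a family of near copies among which shared reads are split by the estimates, so Gbp2 and Gbp3, which fell by 0.47, are uncertain as single genes. The low Cmpk2 and Irf7 fell by 0.96 and 0.63. Cmpk2 was called in 3 of the 8 fits (adjusted p up to 0.12, without the DMSO library of passage 16) and Irf7 in 1 (adjusted p up to 0.15, without the MK-8722 library of passage 19). Cxcl10, a chemokine induced by interferon, was lower in each passage at 15.6, 16.8, 23.2 and 19.0 CPM in DMSO against 11.6, 12.5, 16.4 and 13.5 CPM in MK-8722. Its groups overlapped slightly (log2 fold change -0.46, edgeR adjusted p = 2.8e-05, and 0.029 without the block), and it was the one gene of 27 tested chemokine, cytokine and NF-kappaB genes that fell, while Tnfaip2, Il11 and Traf1 rose. In WT the list had a median log2 fold change of 0.19 with 10 members higher and 1 lower. The response was lower in AMPK KO for 15 members and higher for none, and Cxcl10, which rose by 1.01 in WT, differed by -1.48 (edgeR adjusted p = 5.6e-10). Of the 8 leukocyte markers 3 had enough counts to be tested (Cd14, Cd68 and Csf1r) and none of these was called.

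Few genes of growth and division reached the fold change required of a call. All 35 tested ribosome biogenesis genes had log2 fold changes above 0 (median 0.12), 19 of them at an adjusted p under 0.05. Of all 15828 genes tested, 1085 were higher at that adjusted p. Among the 35, 4 also reached the fold change of 1.2, beside 2.62% of all genes tested. These 4 were Ppan, Polr1b, Rrp1b and Myc, which rose by 0.27 to 0.33. Without the block Ppan and Myc were not called (edgeR adjusted p = 0.065 and 0.38). Polr1b was called in 7 and Rrp1b in 6 of the 8 fits that left out a library, with adjusted p of at most 0.0011 there and fold changes near the threshold. Of 78 cytosolic ribosomal proteins none was called, and their share of all counts was 6.01% ± 0.15 in DMSO and 6.06% ± 0.073 in MK-8722 (SD, n = 4, exact permutation test within passages, two-sided p = 0.5). All 35 tested mitosis genes had log2 fold changes below 0 (median -0.15), 25 with an adjusted p under 0.05. Of all 15828 genes tested, 835 were lower at that adjusted p. Of the mitosis genes only the spindle protein Nusap1 was called. It was at 127, 113, 120 and 120 CPM in DMSO and 99.6, 89.1, 91.8 and 96.1 CPM in MK-8722 (log2 fold change -0.35, edgeR adjusted p = 1.1e-05). No DNA replication gene of 37 was called (median -0.06). Ccnd2, the D-type cyclin of the G1 phase, rose from 172, 158, 178 and 177 CPM to 230, 212, 240 and 238 CPM, clear of the vehicle libraries (log2 fold change 0.43, SE 0.038, edgeR adjusted p = 1.3e-06), and was lower in WT (-0.32). Cholesterol synthesis and uptake genes were below 0 in 25 of 27 cases (median -0.19) with none called, though 5 were called in the fit of the compared libraries alone, against a median of 0.26 and 11 higher genes in WT. The response was lower in AMPK KO for 16 of them.

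**Figure D4:**
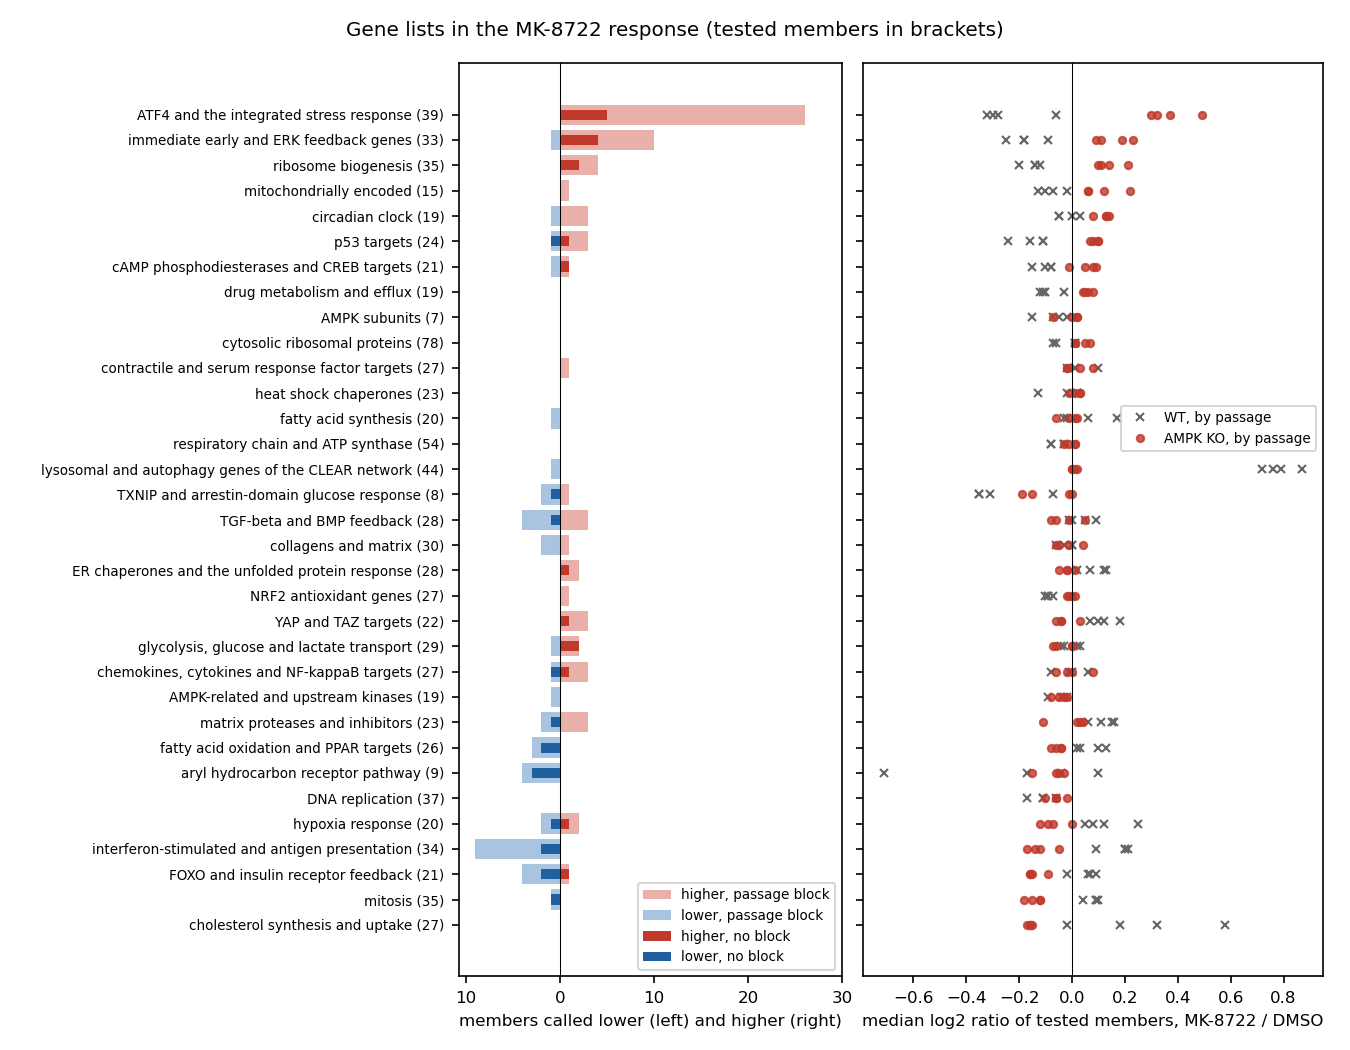
For each of the 33 gene lists, the left panel counts members called lower (to the left) and higher (to the right) with MK-8722 in AMPK KO, in pale bars with the passage block and in dark bars without it. The right panel gives the median log2 ratio of MK-8722 to DMSO within each passage, where the 4 AMPK KO passages of the ATF4 list (0.3 to 0.49) lie apart from the 4 of WT, and the lysosomal list lies near 0 in AMPK KO and near 0.76 in WT.

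Of 30 tested collagen and matrix genes 1 rose and 2 fell. Of 28 genes of TGF-beta and BMP feedback 3 rose and 4 fell. Among all genes tested 2.62% rose and 1.99% fell. Without the block no collagen or matrix gene was called, and 1 gene of TGF-beta and BMP feedback, which fell. Tnc, the matrix glycoprotein tenascin C, was at 633, 633, 597 and 592 CPM in DMSO and at 778, 873, 740 and 830 CPM in MK-8722. It rose without overlap (log2 fold change 0.39, SE 0.04, edgeR adjusted p = 5.8e-06), though not in the unblocked test (adjusted p = 0.22). Id2, an inhibitor of differentiation downstream of BMP, fell from 36.4 to 43.7 CPM in DMSO to 25 to 29.2 CPM (log2 fold change -0.58), and Grem1, a BMP antagonist, rose by 0.59 and was called in 7 of 8 fits (adjusted p = 0.051 without the DMSO library of passage 16). Vegfa, the endothelial growth factor, rose by 0.62 from 73.3 ± 5.54 to 112 ± 9.79 CPM (SD, n = 4, edgeR adjusted p = 1.4e-06, and 0.0094 without the block), as 1 of 2 higher and 2 lower genes among 20 of the hypoxia response. Ankrd37 and Bnip3, which hypoxia induces, fell by 0.79 and 0.34, so the called members went both ways, and Bnip3 was called in 6 of 8 fits (adjusted p = 0.053 without the MK-8722 library of passage 19 and 0.043 with a fold change under 1.2 without the DMSO library of passage 19). Neurl3, a ubiquitin ligase, went from 9.09, 9.29, 11.5 and 11.4 CPM to 4.39, 5.36, 6.86 and 4.56 CPM. Its fall of 0.97 had no overlap (SE 0.096, edgeR adjusted p = 3.9e-06). The metal-binding protein Mt2 rose from 19.3, 13.6, 16.8 and 14.0 CPM to 40.0, 27.8, 29.4 and 23.3 CPM, also without overlap (log2 fold change 0.91, SE 0.13, edgeR adjusted p = 9.5e-05, and 0.019 without the block). Mt2 has close paralogues with which reads can be shared. Further large falls were those of the cadherins Fat4 (-0.88) and Cdh26 (-0.85), the pentraxin Ptx3 (-0.85), the sulfotransferase Chst15 (-0.83) and the factor Atoh8 (-0.79). Fat4 and Ptx3 were not called without the block (adjusted p = 0.067 and 0.057). Large rises at about 1 to 6 CPM were those of Elovl3 (1.21), an elongase of fatty acids, Ptpn22 (0.96), Mef2b (0.94), Tnfaip2 (0.92), Cyth4 (0.87) and Cabp1 (0.87). Of these Ptpn22, Mef2b and Cabp1 were not called without the block, and Cabp1 was called in 4 of 8 fits (adjusted p up to 0.088, without the MK-8722 library of passage 16).

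Some abundant genes outside the lists and the naming rule were picked after their values had been seen, for their level and size of change. Hmga2, a chromatin protein of growing mesenchymal cells, was at 150, 287, 191 and 198 CPM in DMSO and at 257, 465, 341 and 381 CPM in MK-8722. It was higher in each passage while the groups overlapped through the high DMSO library of passage 17 (log2 fold change 0.81, SE 0.089, edgeR adjusted p = 9.4e-06, and 0.018 without the block). Odc1, the rate-limiting enzyme of polyamine synthesis, rose from 386 to 415 CPM in DMSO to 473 to 512 CPM without overlap (log2 fold change 0.32, edgeR adjusted p = 0.00023, and 0.0031 without the block). Mxd4, which opposes MYC, fell from 42.8, 38.4, 42.1 and 43.9 CPM to 29.2, 24.4, 27.4 and 26.5 CPM, well apart (log2 fold change -0.64, edgeR adjusted p = 8.6e-06), and Timp2, an inhibitor of matrix proteases, fell by 0.29 from 432 ± 34.4 to 353 ± 36.7 CPM (SD, n = 4, edgeR adjusted p = 6.4e-06). All 4 were called in every fit that left out a library. Sox2, a stem cell and neural factor present in these cells, was at 14.3 to 14.7 CPM in DMSO and at 9.57 to 10.8 CPM in MK-8722 (log2 fold change -0.54, edgeR adjusted p = 0.00071). It was the only called member of the 5 tested neural markers, beside 4.61% called of all genes tested. The other 4 neural markers had log2 fold changes above 0.

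Several lists held few or no called genes, beside 4.61% called of all genes tested. For lists of this size that share also gives few calls, so a low count alone does not set a list apart. The lists of AMPK-related kinases, ER chaperones and mitochondrially encoded genes were above that share (5.26%, 7.14% and 6.67%). None of the 7 AMPK subunit genes was called, with log2 fold changes from -0.23 (Prkag3, at 0.164 to 0.763 CPM) to 0.21 (Prkab2, edgeR adjusted p = 0.069). Among 19 kinases related to or upstream of AMPK, only Nuak1 was called, which fell by 0.46 (edgeR adjusted p = 0.00029, and 0.24 without the block). Of 44 tested lysosomal and autophagy genes of the CLEAR network none rose, and the only one that fell was Ppargc1a. Their median log2 fold change was 0.00 in AMPK KO and 0.76 in WT, where 41 rose, and the response was lower in AMPK KO for 41. Hexa, a lysosomal hexosaminidase, was at 39.5, 35.7, 40.0 and 40.5 CPM in DMSO and at 40.4, 38.9, 41.8 and 39.8 CPM in MK-8722. The groups overlapped (log2 fold change 0.05, SE 0.061, edgeR adjusted p = 0.69), as they did for Ctsa (-0.01, SE 0.049), Flcn (0.05, SE 0.073) and Fnip1 (0.08, SE 0.081). No gene was called among 54 of the respiratory chain and ATP synthase, 23 heat shock chaperones or 19 of drug metabolism and efflux. Of 28 ER chaperone and unfolded protein response genes 2 were called, the sensor Atf6, which rose by 0.38, and Herpud1, which rose by 0.3 in 7 of 8 fits (adjusted p = 0.087 without the DMSO library of passage 16). Of 27 NRF2 antioxidant genes only Slc7a11 was called. Of 15 mitochondrially encoded genes mt-Co1 rose, from 2720 to 3380 CPM in DMSO to 3530 to 3850 CPM (log2 fold change 0.28, edgeR adjusted p = 0.0047), called in 4 of 8 fits with adjusted p of at most 0.033. The share of all counts from mitochondrially encoded genes was 1.4% ± 0.13 in DMSO and 1.52% ± 0.083 in MK-8722 (SD, n = 4) and higher in 4 of 4 passages (exact permutation test within passages, two-sided p = 0.13, the smallest that 4 pairs allow). Its part in the other results was not tested.

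Set against WT, the AMPK KO response held fewer called genes, most of which were not called in WT. MK-8722 changed 2907 genes in WT, 1778 higher (11.2%) and 1129 lower (7.13%), with a median fold of 1.36, and 359 of them reached 2-fold against 44 in AMPK KO. The comparisons share no library. Of the 729 genes called in AMPK KO, 173 were called in the same direction in WT, 100 in the opposite direction and 456 not in WT. Without the block these numbers were 55 in the same and 26 in the opposite direction. The 93 genes higher in both are 22.5% of the higher genes in AMPK KO and 5.23% of those in WT, and the 80 lower in both are 25.4% and 7.09%. The 59 genes higher in AMPK KO and lower in WT are 14.3% and 5.23% of the respective lists, and the 41 with the reverse pattern 13.0% and 2.31%. The size of the response itself was tested as an interaction. It differed between genotypes for 2785 (17.6%) of all genes and for 382 (52.4%) of the 729, and for 133 of the 173 shared genes no difference was called. Genes that rose in AMPK KO had a median log2 fold change of 0.4 there and 0.02 in WT, and those that fell had -0.41 and -0.1. The same-direction genes with the largest smaller response of the pair were Cyp1b1, Txnip, Arrdc4, Neurl3, Mt2 and Atoh8. Their log2 fold changes in WT were -1.5, -1.63, -1.15, -1.78 (at only 1 to 9 counts per library), 0.78 and -0.77. The opposite ones were Npr3, a clearance receptor for natriuretic peptides (0.77 in AMPK KO and -0.83 in WT), Dhrs9, a retinol dehydrogenase (0.74 and -0.74), Fgfr2, a growth factor receptor (-0.73 and 0.98), Slc7a11 (0.64 and -0.67), Lpin1 (-0.79 and 0.63) and Klhl24, a ubiquitin ligase adaptor (-0.62 and 1.32). For all 6 of these the difference of the responses was called (edgeR adjusted p from 7.8e-10 to 0.00016), and Npr3 was called in AMPK KO in 2 of 8 fits (adjusted p up to 0.14, without the DMSO library of passage 16).

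**Figure D5:**
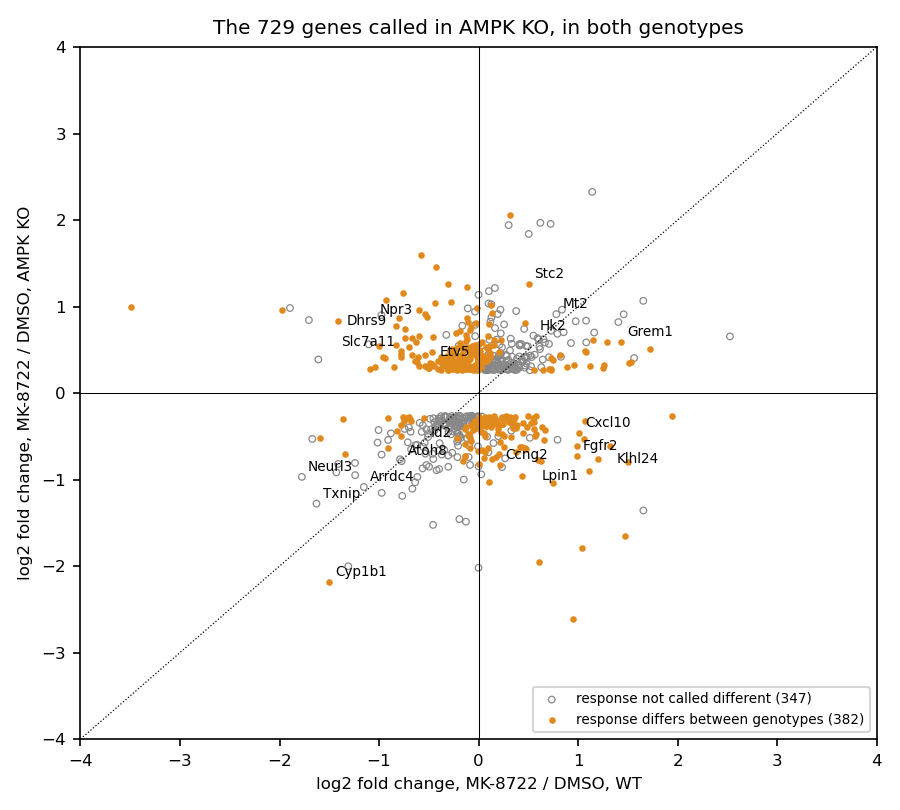
Log2 fold change of MK-8722 over DMSO in WT (horizontal) and AMPK KO (vertical) for 727 of the 729 genes called in AMPK KO, with 2 outside the axes. Filled points are genes whose response differs between genotypes (382 in all), and the dotted line marks equal responses. Stc2 and Mt2 lie in the upper right, Cyp1b1, Txnip and Neurl3 in the lower left, and Slc7a11, Lpin1 and Klhl24 in the quadrants of opposite change.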

How the data were processed

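Poly(A) RNA of 24 MEF libraries was sequenced, of which the 8 AMPK KO libraries treated with MK-8722 or DMSO are compared here. The authors, as their methods state, ran nf-core/rnaseq with the STAR aligner on GRCm38 with options for molecular identifiers, and the submitters' processing notes name Salmon. The authors deposited estimated counts per gene, not normalized and in part (14.7% of values) not whole, and estimated counts and TPM per transcript. Gene counts equalled the summed transcript counts. The study removed batch effects without naming the batch, and with a single batch label for all libraries no such step was applied here.

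Counts were rounded, genes with low counts removed with filterByExpr, which left 15828 of 55487 genes with 99.96% of counts, libraries scaled by TMM, and all 24 libraries fitted in a quasi-likelihood model of edgeR 4.0.16 (R 4.3.3) with a mean per group and passage as a block within genotype, which left 12 residual degrees of freedom. All tests of genes were two-sided, with Benjamini-Hochberg adjustment over all genes, and the code was tested on simulated data. CPM are TMM-scaled, with a prior count of 2 on the log2 scale. TPM and transcript lengths served the length offset and the choice of each gene's transcript start. Passages pair the libraries by label. Deviations from group means correlated at 0.367, 0.209, 0.133 and 0.0481 between libraries of passage 16, 17, 18 and 19, and at -0.196 to 0.0721 between different passages. The replicate numbers in the titles match passage for 2 of the 4 pairs. Differences between libraries of a group exceeded sampling noise, with a chi-square of 3.63 to 19.3 per degree of freedom. The largest values, 13.9, 14.1 and 19.3, were those of the pairs with the DMSO library of passage 19. In that library Lars2 stood at 459 CPM, against 62.9 to 68.6 CPM in the other AMPK KO DMSO libraries.

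The comparison, the gene lists and the rule for names were chosen with earlier results of these data known. Named were the AMPK subunits with Hexa, Ctsa, Flcn and Fnip1, the 10 largest rises and 10 largest falls among genes of at least 2 CPM that moved the same way in all 4 passages (gene models passed over), 6 genes called in the same and 6 in opposite directions in both genotypes, up to 4 called members of each list and the 3 lowest p values. Of the genes this rule names, 2 are not reported here. Others, apart from the cell type markers, were named after their values were seen, which the text marks for most. Gene positions come from GENCODE on GRCm38 (99.92% of tested genes) and cover whole genes. Upstream sequences are from RefSeq (GRCm38.p6), matched for 10786 (68.1%) of tested genes. For the called genes 304 of 414 higher and 237 of 315 lower had one, fewer than 80%, so motif shares over those were not used. Other tools were limma 3.58.1 and Python 3.11.15.

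Alternatives were no block, the replicate number as the block, scaling by DESeq2 size factors or by library size, other filters, counts not rounded, a length offset, fits of fewer libraries, other thresholds, DESeq2 1.42.0, and leaving out each library or passage. Leaving out each library without the block was an addition made once the data had been seen.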

Additional observations from a re-analysis of the deposited data

Results flagged for a closer look

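In groups of 4 libraries, 15 values of 196 groups stood apart from the other 3, where chance gives about 1 in 20, and 10 of the 15 were in passage 16. Col1a2, a collagen chain, was at 47.3 CPM in DMSO of passage 16 against 21.3 to 22.7 CPM in the others, and at 38.7 CPM in MK-8722 of passage 16 against 17.4 to 19.2 CPM. Its call (log2 fold change -0.28, edgeR adjusted p = 0.035) was kept in 1 of the 8 fits that left out a library (adjusted p up to 0.15, without the DMSO library of passage 16). Dhrs9 was high in passage 18 in both groups, at 5.94 CPM in DMSO and 8.72 CPM in MK-8722. The other MK-8722 libraries that stood apart in passage 16 were those of Prkab1 (53 CPM), Cyth4 (3.82), Ptx3 (19.1), Foxo1 (16.8) and Prrx1 (23.7, the lowest), and in passage 17 that of Adam19 (3.0). Adam19 (log2 fold change 0.43) was called in none of the 8 fits that left out a library, with adjusted p up to 0.16. In DMSO they were the passage 16 libraries of Fnip1 (25.7 CPM), Cdh26 (3.23, the lowest) and Cyp1a1 (0.671), the passage 17 library of Prkab2 (9.13, the lowest) and the passage 18 library of Prkab1 (47.1, the lowest).

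The response to MK-8722 differed between genotypes, by the interaction test in edgeR, for 56 of the 98 named genes. Values are the log2 fold change in AMPK KO minus that in WT. For 26 genes it was lower in AMPK KO. Among metabolic, stress and signalling genes these were Klhl24 (-1.93), Fgfr2 (-1.71), Lpin1 (-1.42), Ccng2 (-1.04), Bnip3 (-0.79), Tiparp (-0.77), Cpt1a (-0.75), Cyp1b1 (-0.68), Pdk1 (-0.67), Nuak1 (-0.65), Prkaa2 (-0.62), Ankrd37 (-0.62), Nusap1 (-0.48), Foxo1 (-0.38) and Atf6 (-0.37). Among genes of interferon and matrix they were Cxcl10 (-1.48), Cmpk2 (-1.4), Irf7 (-1.06), Gbp2 (-0.83), Gbp3 (-0.71), Grem1 (-0.84) and Adamts5 (-0.74), and among lysosomal genes and their regulators Hexa (-1.33), Fnip1 (-1.27), Flcn (-1.11) and Ctsa (-0.94).

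For 30 genes the response was higher in AMPK KO. Those of the ATF4 list were Adm2 (1.4), Slc7a11 (1.31), Sesn2 (1.02), Cth (0.89) and Stc2 (0.75), those of ERK feedback Etv5 (1.1) and Dusp6 (0.95), and those of ribosome biogenesis Ppan (0.44), Polr1b (0.39), Rrp1b (0.35) and Myc (0.3). The others were Cabp1 (1.67), Npr3 (1.6), Ptpn22 (1.56), Dhrs9 (1.48), Traf1 (1.36), Per2 (1.34), Arrdc3 (1.0), Tnfaip2 (0.78), Ccnd2 (0.75), Ciart (0.73), Zyx (0.67), Herpud1 (0.6), Prrx1 (0.59), Fjx1 (0.55), Tnc (0.48), Vegfa (0.46), Prkab1 (0.43) and Gadd45a (0.39). The value for Cyp1a1 (4.03) rests on 0 counts in WT MK-8722 libraries and depends on the prior count. Those for Cabp1 and Ptpn22 rest on 0 to 12 and 4 to 22 counts per WT library.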

How the results depend on the processing

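Counts of genes called in AMPK KO, in WT, for the difference between genotypes and in the same direction in both genotypes were 729, 2907, 2785 and 173. Without the replicate block they were 247, 2483, 2023 and 55, and with the replicate number of the titles as the block 193, 2417, 1900 and 42. A test against a fold change of 1.2 gave 97, 1214, 941 and 17, the adjusted p alone 1920, 5998, 4380 and 614, and a fold change of at least 1.5 gave 185, 947, 896 and 36. Leaving out a library or a passage gave 429 to 754, 2635 to 3054, 2509 to 2890 and 95 to 173, with the lowest AMPK KO and shared counts without passage 19. Leaving out a library in the fit without the block, added after the data had been seen, gave 121 to 271 in AMPK KO, with the lowest without the MK-8722 library of passage 19. In those fits the log2 fold change of Col1a2 ranged from -0.64 to 0.08, its sign turning without the DMSO library of passage 16 (adjusted p = 0.95). Other scalings, filters, fits of fewer libraries, the length offset and DESeq2 kept each of the 4 counts within 1.5 times. Of the 87 called named genes, 40 were called without the block, 31 with the replicate number as the block, 65 with the length offset and 76 with DESeq2, and each of the 87 kept its direction in all fits apart from Col1a2. With the length offset 3 interferon genes were called in place of 9. The cause of these differences was not tested. At this depth, genes of a few counts per library, such as Cyp1a1 and Cmpk2, carry large errors.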
